A study of Mus musculus with 4 samples.

Results

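The mucin genes Muc1, Muc2, Muc4, Muc5ac, Muc5b, Muc13, Muc15, Muc16 and Muc20 were followed in mouse bronchial epithelial cells after allergen challenge. Probes were taken where the gene name in the scanner files was one of these 9 names. That gave 10 probes of 8 genes, out of 36950 probes of 28663 genes, since no probe carried the name Muc16. A probe under an Ensembl transcript name is called mucin 16 in its description and is given apart.

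Mucins are large glycoproteins with stretches rich in serine and threonine that carry dense O-linked sugar chains. The gel-forming mucins Muc5b and Muc5ac are secreted and make airway mucus. Muc5b is the mucin that mouse airways need for mucociliary clearance, and Muc5ac is the one known to be induced in goblet cells by the type 2 cytokine IL-13. Transmembrane mucins such as Muc1, Muc4, Muc13, Muc16 and Muc20 stay anchored at the apical cell surface, where they form part of the glycocalyx and some take part in signalling.

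The 4 groups were challenged cells labelled Pla2g3-/-, control cells labelled Pla2g3-/-, challenged wild-type cells (Pla2g3+/+) and control wild-type cells. Pla2g3 encodes a secreted phospholipase A2. Per the labels, mice were injected with 10 µg ovalbumin and 1.3 mg alum on days 0 and 14 and breathed a 1% ovalbumin aerosol for 30 min on days 26, 27 and 28. Their lungs were collected 3 h later. The treatment of the control mice, the strain, age and sex, and the part of Pla2g3 that was removed are not given in the sources used here. RNA pooled from 4 samples was hybridised to 1 Agilent array per group, so no difference below has a replicate check.

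Pla2g3 itself went against the labels. Its brighter probe read 4154 and 2023 intensity units on the challenged and control arrays labelled Pla2g3-/-, against 254 and 239 on the challenged and control wild-type arrays. A second probe read 336 and 177 units, against 13.1 and 44.1. It is not known if the probes fall inside the removed stretch; outside it they would say nothing about the deletion. Every genotype direction below therefore rests on the labels as given.

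Of all probes, 78.7% to 81.5% were well above background per array. All 10 epithelial markers looked up, all 5 club cell markers and all 5 ciliated cell markers on the array were well above background on every array, so the defining markers of the labelled tissue were present. Genes of other cells were present as well. All markers looked up for alveolar type 2 cells (6), fibroblasts (5), mesothelium (6) and endothelium (4) were also well above background on every array. Detection alone therefore does not tell the cell types apart. The 8 genes of thymocytes and T cells had a median log2 level of −1.93 and 1.66 on the challenged and control arrays labelled Pla2g3-/-, and −3.80 and −2.97 on the challenged and control wild-type arrays, so that the control array labelled Pla2g3-/- was well above the rest. The 4 B cell genes had a median level of −1.49 to −1.64 on the other arrays and −0.15 on the control wild-type array. The 5 parathyroid and thyroid genes, all well above background on every array, had a median level of −3.92 and −4.35 on the challenged and control arrays labelled Pla2g3-/-, and −5.15 and −3.68 on the challenged and control wild-type arrays. Of these 5, 3 were at least 2-fold lower on the challenged wild-type array than on the control one. Pth, the parathyroid hormone gene, read 45.9 units on the challenged and 1754 units on the control wild-type array. The part of these cells in the mucin differences was not tested. In such pools fewer cells of a type and less RNA per cell cannot be told apart.

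The oligos behind each measurement were 60-base probes placed on mm9. The first 30 bases of each, from the 5′ end, are shown for the members whose values carry the results.

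Muc5ac, chr7:149004793-149004852, + strand: ctgaatactgctgctgtcccaaccaaaagg
Muc5b, chr7:149058931-149058990, + strand: ggggttgaagaggggtctgtgctcactcat
Muc13, chr16:33819909-33819968, + strand: cctcgtgtctgtctgacgtctggtcctctc
Muc4, brighter probe, chr16:32782278-32782337, + strand: catggtggccaaatatacagatggatgggt
Muc4, second probe, chr16:32774896-32774955, + strand: ctaacttgtcatgggtactccagcccaaga
Muc20, brighter probe, chr16:32786143-32786202, − strand: gctgacctcttttcagagatgtccctcaca
Muc20, second probe, chr16:32777512-32777571, − strand: cccagccgctttatttcctgaaataacaac
Muc1, chr3:89034965-89035024, + strand: ctatagcacagtaccattttctaccttctc

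These positions show the layout of the family. The probes of Muc2 (chr7:148940000-148940059), Muc5ac and Muc5b lie together on chromosome 7, and those of Muc4, Muc20 and Muc13 on chromosome 16. The second Muc20 probe, which the file ties to transcript variant 1, sits between the 2 Muc4 probes on the opposite strand, whereas the brighter Muc20 probe is tied to variant 2. Which exon or UTR holds each probe was not analysed here.

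Values are given first as processed intensity, then as log2 differences after each array was scaled to its 75th percentile, so that 1 is a 2-fold difference. The error beside a difference is the scanner's own, which holds a fixed proportional part and covers the spots only, not animals, pools or labelling. Levels of different probes were not set against each other.

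Muc5ac was higher after challenge in both genotypes. Its probe read 786 and 328 units on the challenged and control arrays labelled Pla2g3-/-, against 678 and 410 units on the challenged and control wild-type arrays. Both challenged arrays lay above both control arrays. The log2 difference between challenged and control cells was 1.15 ± 0.20 (2.22-fold) in cells labelled Pla2g3-/- and 0.86 ± 0.20 (1.81-fold) in wild-type cells. Of all genes measured, 2.28% and 1.56% were at least as much higher in these comparisons. Between genotypes the differences were small: 0.08 ± 0.20 with challenge and −0.21 ± 0.20 without.

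Muc5b was bright on every array and higher after challenge by less. It read 205517 and 134445 units on the challenged and control arrays labelled Pla2g3-/-, and 141006 and 125748 units on the challenged and control wild-type arrays, with no saturated spot. The challenge difference was 0.50 ± 0.20 (1.42-fold) in cells labelled Pla2g3-/- and 0.30 ± 0.20 (1.23-fold) in wild-type cells. The array labelled Pla2g3-/- was above wild type by 0.41 ± 0.20 with challenge and by 0.21 ± 0.20 without, the second about as large as its error. When arrays were scaled to the median level of the 10 epithelial markers, the challenge differences of Muc5b were 0.14 and 0.11. With the control arrays exchanged they were 0.71 and 0.09.

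Muc2, the main gel-forming mucin of the intestine, was at the limit of detection. It read 9.26 and 5.15 units on the challenged and control arrays labelled Pla2g3-/-, and 10.2 and 6.37 units on the challenged and control wild-type arrays. Only the challenged wild-type array was well above background. That makes the challenge difference in wild type at least 1.16-fold. Between challenged arrays it gave a bound of −0.003 or lower on the log2 scale, and no other difference of Muc2 is given.

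**Figure D1:**
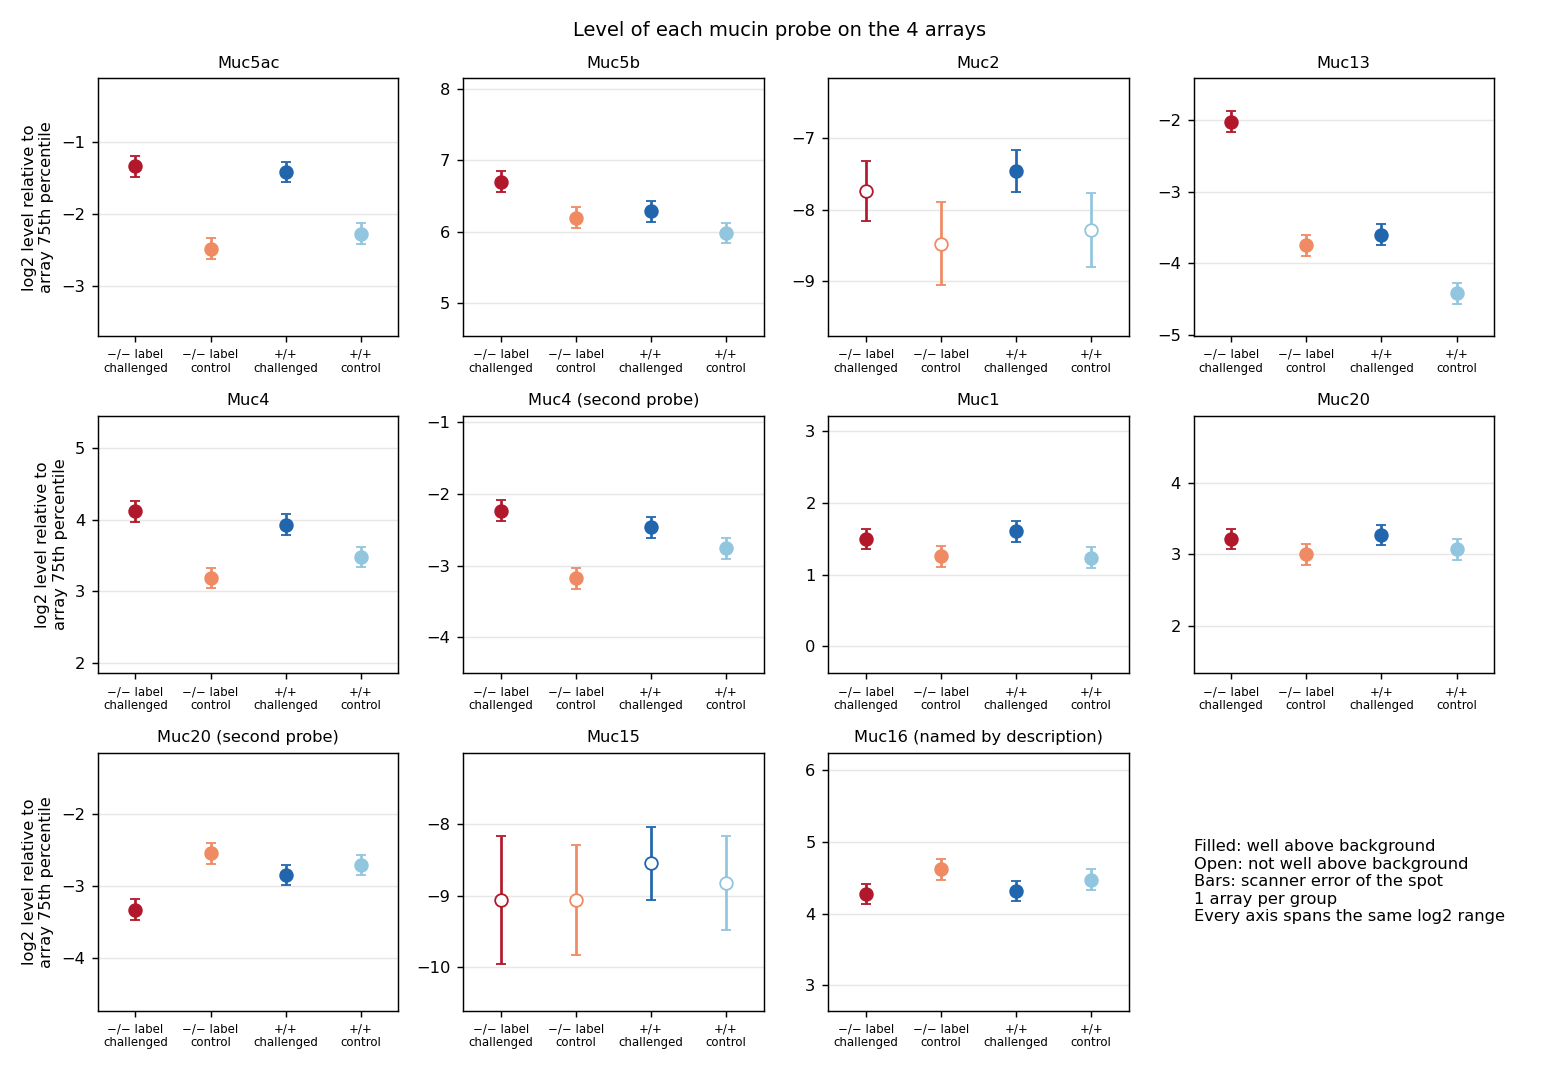
Level of each mucin probe (log2, relative to the array's 75th percentile) on the 4 arrays, with the scanner error of the spot as a bar and open circles where the probe was not well above background. Each axis spans the same number of log2 units. Muc5ac and both Muc4 probes sit higher on the challenged arrays of both genotypes, Muc13 stands highest on the challenged array labelled Pla2g3-/-, and Muc15 and most Muc2 points are open.

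Muc13, a transmembrane mucin with EGF-like domains best known from the gut and also found on blood progenitor cells, differed most. It read 487 and 137 units on the challenged and control arrays labelled Pla2g3-/-, against 149 and 93.1 units on the challenged and control wild-type arrays. The challenged array labelled Pla2g3-/- was the highest by far, the control wild-type array the lowest, and the other arrays were close to each other. The challenge difference was 1.72 ± 0.20 (3.30-fold) in cells labelled Pla2g3-/- and 0.81 ± 0.21 (1.76-fold) in wild-type cells. Of all genes measured, 1.05% and 1.82% differed at least as much upward in these comparisons.

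Muc13 was also higher in cells labelled Pla2g3-/- than in wild type. The difference was 1.58 ± 0.20 (2.99-fold) with challenge, which 1.17% of genes matched or passed, and 0.67 ± 0.21 (1.59-fold) without. Its challenge difference was larger in cells labelled Pla2g3-/- by 0.91 ± 0.29 (1.88-fold). Whether this exceeds the spread between pools was not tested. With the control arrays exchanged between genotypes, a choice made after the data were seen, the challenge difference of Muc13 was 2.39 in cells labelled Pla2g3-/- and 0.14 in wild type. With normexp background correction the challenge differences of Muc13 were 1.41 with the label Pla2g3-/- and 0.57 in wild type. The genotype differences were then 1.29 with challenge and 0.45 without. These 4 values moved by more than their scanner error.

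Of the neutrophil markers, 3 of 4 were also highest on the challenged array labelled Pla2g3-/-, as were all 5 macrophage markers. All 4 neutrophil markers looked up were well above background on every array, with a summed scaled signal of 86.9 and 45.6 on the challenged and control arrays labelled Pla2g3-/-, and 62.6 and 58.0 on the challenged and control wild-type arrays. Csf3r, the G-CSF receptor gene, made up a large part of these sums and went the other way, with 64746 and 68362 units on the challenged and control arrays labelled Pla2g3-/-, and 85720 and 106182 units on the challenged and control wild-type arrays. The other 3 differed between challenged and control arrays by 2.65 to 3.32 with the label Pla2g3-/- and by 1.67 to 1.99 in wild type. The 5 macrophage markers, also all well above background, summed to 7.48 and 3.29, against 2.91 and 4.48. The median log2 difference of the neutrophil markers between challenged and control arrays was 2.73 with the label Pla2g3-/- and 1.71 in wild type, and that between genotypes was 1.92 with challenge and 0.90 without. For the macrophage markers these medians were 1.01, 0.08, 1.14 and −0.09. Their part in the Muc13 result was not tested.

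Muc4, a transmembrane mucin that can bind the receptor ErbB2, was higher after challenge by both of its probes. The brighter probe read 34436 and 16749 units on the challenged and control arrays labelled Pla2g3-/-, against 27643 and 22168 units on the challenged and control wild-type arrays. The second read 420 and 203 units, against 327 and 294 units. On both probes the control array labelled Pla2g3-/- was the lowest and the challenged arrays were above the control arrays.

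The challenge difference of Muc4 in cells labelled Pla2g3-/- was 0.93 ± 0.20 by the brighter probe and 0.94 ± 0.20 by the second (1.91-fold and 1.92-fold). In wild-type cells it was 0.45 ± 0.20 and 0.29 ± 0.20. The genotype difference was 0.19 ± 0.20 and 0.23 ± 0.20 with challenge, and −0.29 ± 0.20 and −0.42 ± 0.20 without. The control array labelled Pla2g3-/-, where the thymocyte and T cell genes were high, enters both the larger challenge difference of Muc4 and its genotype difference without challenge. Its part in these was not tested. With the control arrays exchanged, the order of the genotypes turned. By the brighter probe, the challenged array labelled Pla2g3-/- was higher than the wild-type control array by 0.64. The challenged wild-type array was higher than the control array labelled Pla2g3-/- by 0.74.

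Muc1, a transmembrane mucin of most simple epithelia, varied little. It read 5596 and 4379 units on the challenged and control arrays labelled Pla2g3-/-, and 5501 and 4688 units on the challenged and control wild-type arrays. The challenge difference was 0.24 ± 0.20 in cells labelled Pla2g3-/- and 0.37 ± 0.20 in wild-type cells, and the genotype difference was −0.11 ± 0.20 with challenge and 0.02 ± 0.20 without. The challenge difference in cells labelled Pla2g3-/- turned to −0.12 when arrays were scaled to the epithelial markers.

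Muc20, a transmembrane mucin that can bind the receptor Met, gave unlike values by its probes. The brighter probe read 18379 and 14715 units on the challenged and control arrays labelled Pla2g3-/-, and 17485 and 16701 units on the challenged and control wild-type arrays. The second read 196 and 314 units, against 251 and 304 units. The challenge difference in cells labelled Pla2g3-/- was thus 0.21 ± 0.20 by the brighter probe and −0.79 ± 0.20 by the second, and in wild-type cells 0.20 ± 0.20 and −0.14 ± 0.20.

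The sign of the Muc20 challenge difference therefore depends on the probe. The second probe also lies opposite the Muc4 locus, as given above, and was lowest where both Muc4 probes were highest. A link between these was not tested.

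Muc15, a transmembrane mucin, was not well above background on any array, with 3.71 and 3.44 units on the challenged and control arrays labelled Pla2g3-/-, and 4.84 and 4.38 on the challenged and control wild-type arrays. No fold is given for it. The probe described as mucin 16, a very large membrane mucin, read 38316 and 45073 units on the challenged and control arrays labelled Pla2g3-/-, and 36056 and 44207 units on the challenged and control wild-type arrays. Its challenge difference was −0.34 ± 0.20 in cells labelled Pla2g3-/- and −0.16 ± 0.20 in wild-type cells, and its genotype differences were −0.04 ± 0.20 and 0.14 ± 0.20 with and without challenge. Among the membrane mucins above background, Muc16 was the one whose brightest probe read lower on both challenged arrays, in wild type by less than the error.

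**Figure D2:**
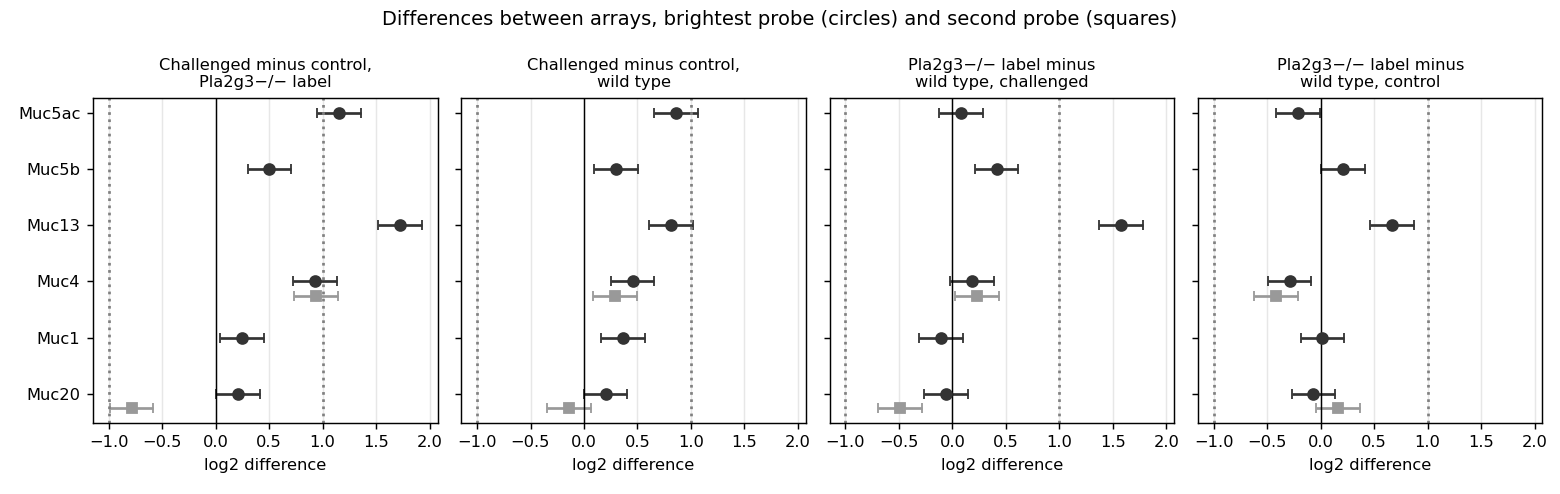
Log2 differences between arrays for the 6 mucin genes measured on all 4 arrays, with the scanner error of the difference; circles are the brightest probe and squares the second probe of Muc4 and Muc20, and dotted lines mark 2-fold. Circles lie above 0 in both challenge panels (Muc1 and Muc20 fall below 0 in cells labelled Pla2g3-/- when scaled to epithelial markers), the squares of Muc20 lie below, and only Muc13 passes 2-fold between genotypes, at 1.58 with challenge.

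Across the family, the challenge differences leaned upward. Of the 6 members measured on both arrays labelled Pla2g3-/-, 2 were at least 2-fold higher after challenge (Muc5ac and Muc13) and 0 lower, where 3.86% of all genes were higher and 3.42% lower. Their median was 0.72, against −0.06 over all genes. Muc5ac was below 2-fold with normexp (0.98), with scaling to the epithelial markers (0.79) and against the wild-type control array (0.94), and in wild type it was above 2-fold (1.07) against the control array labelled Pla2g3-/-. In wild type 0 of 7 members were shown to be at least 2-fold higher or lower, where 1.81% of genes were higher and 1.68% lower, and the median of the 6 measured on both arrays was 0.41 against −0.03. The 7 include Muc2 by its bound of at least 1.16-fold, which does not settle if it passed 2-fold. The brightest probes of all 6 read higher after challenge in both genotypes, as 42.6% and 45.2% of genes did, except that Muc1 and Muc20 turned to −0.12 and −0.15 in cells labelled Pla2g3-/- when arrays were scaled to the epithelial markers. The mean of its probes also turned Muc20, to −0.29. Scaling to the epithelial markers subtracts their median level on each array, which lowers every gene alike in these challenge comparisons. The median of the markers' own challenge differences was only 0.04 in cells labelled Pla2g3-/- and 0.07 in wild type.

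Genotype differences had no common direction. With challenge 1 of 7 members (Muc13) was shown to be at least 2-fold higher in cells labelled Pla2g3-/- and 0 lower, where 3.84% of genes were higher and 2.48% lower, and the median of 6 was 0.13. The 7 include Muc2 by a bound, which does not settle if it was 2-fold lower. Without challenge 0 of 6 members differed 2-fold either way, where 3.19% of genes were higher and 1.79% lower, and the median was −0.03. For the difference of the challenge differences 0 of 6 reached 2-fold, where 2.81% and 2.7% of genes did upward and downward. These comparisons share arrays and are not independent of each other.

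The one test the design allows fits genotype and challenge as separate additive terms with limma over the 4 arrays, with 1 residual degree of freedom. It takes any difference between the challenge effects as error. It called 0 of 6 members for the average challenge effect at an adjusted p of 0.05, where 0.0225% of 22232 genes were called higher and 0% lower, and 5 of 6 members had an unadjusted p under 0.05, as did 3493 of all genes. Muc5ac came nearest, with an average of 1.00 (SE 0.14) and an adjusted p of 0.154 (limma). Muc4 averaged 0.69 (SE 0.14) with an adjusted p of 0.203, and Muc13 1.27 (SE 0.26) with an adjusted p of 0.206 (limma).

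For the average genotype difference limma called 0 of 6 members as well, where 0.0045% of genes were called higher and 0.0315% lower, and 2 of 6 members had an unadjusted p under 0.05, as did 2772 of all genes. The members were Muc13 with 1.12 (SE 0.26, adjusted p = 0.228) and Muc5b with 0.31 (SE 0.11, adjusted p = 0.368). When the arrays were scaled to the epithelial markers, limma's adjusted p for the challenge effect was 0.0235 for Muc5ac and 0.0156 for Muc13, and that for the genotype difference of Muc13 was 0.0105. The average challenge effect of Muc5ac was smaller under that scaling, at 0.73 (SE 0.19), and that of Muc13 was 0.99 (SE 0.24). The unadjusted p of Muc5ac hardly changed, so its lower adjusted p came from the larger number of other genes with a small p. For Muc13 the unadjusted p also fell, for challenge and for genotype. Its challenge effect was smaller all the same, and its genotype difference was 1.13, against 1.12. The scaling shifts all genes of an array alike, so these lower p values are not read as a result about Muc13. That scaling called 2489 and 807 of all genes for challenge and genotype, against 5 and 8. Most of the 2489 were called lower after challenge, whereas all 5 in the reported setting were called higher.

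Genes whose profiles over the 4 arrays lay nearest were looked up among 16419 named genes. This was done for the 2 members that spanned at least 1 log2 unit and were well above background on all 4 arrays. For Muc13 these were Il4i1, an amino acid oxidase gene induced by IL-4, Mmp9, a gelatinase gene of neutrophils and macrophages, and Skor1, a transcriptional corepressor gene. Their profiles differed from that of Muc13 by a root mean square of 0.07, 0.07 and 0.10 on the log2 scale. Il4i1 read 9615 and 2974 units on the challenged and control arrays labelled Pla2g3-/-, against 2894 and 1814 units on the challenged and control wild-type arrays. Mmp9 and Skor1 were dim, at 31.0 to 185 and 18.8 to 85.4 units. For Muc5ac the nearest genes were Xdh (xanthine dehydrogenase), Slc13a2 (a dicarboxylate transporter) and Tchh (trichohyalin), at 0.04, 0.07 and 0.07. With 4 arrays and 16419 genes to choose from, close profiles are easily found, and their nearness was not tested.

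**Figure D3:**
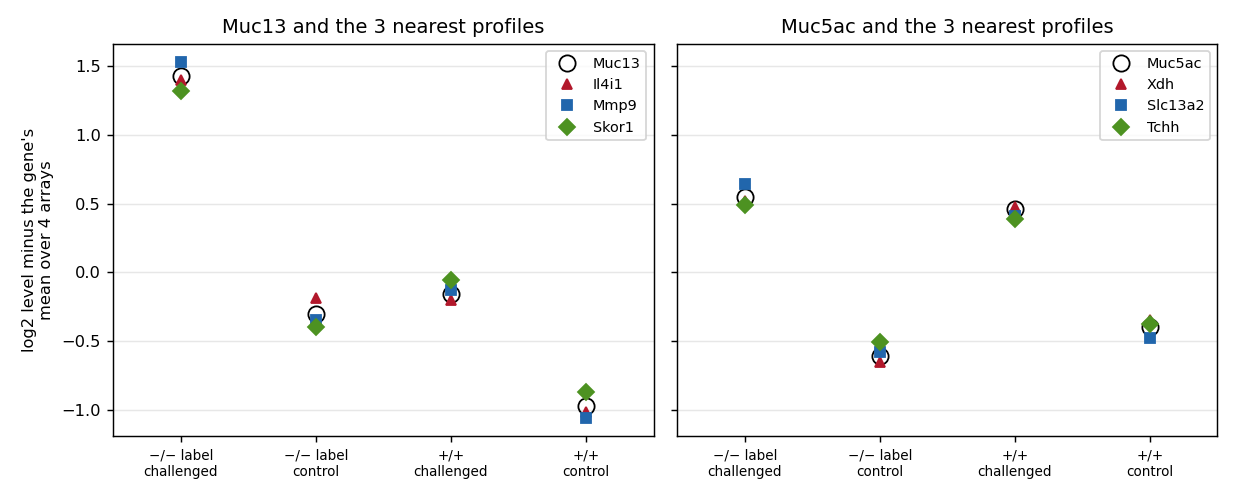
Profiles of Muc13 and Muc5ac (open circles) and of the 3 genes nearest to each, as log2 level minus the gene's mean over the 4 arrays. The Muc13 profile peaks on the challenged array labelled Pla2g3-/-, at 1.42, while the Muc5ac profile has both challenged arrays alike, at 0.54 and 0.46.

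Genes of the mucus programme outside the family were set beside it. Of 13 genes of goblet cell products, 4 were past 2-fold higher after challenge in cells labelled Pla2g3-/- while 1 was that much lower, and in wild type 4 were higher and 0 lower. Slc26a4, the anion exchanger pendrin, differed by 4.19 in cells labelled Pla2g3-/- and by 4.62 in wild type, and Tff1, a trefoil peptide secreted with mucins, by 1.78 and 2.86. Clca1, a secreted goblet cell protease that acts on mucus, differed by 0.63 and 1.89. Tff3 was the lower one, by at least 2.84 on the log2 scale: it read 74.4 units on the control array labelled Pla2g3-/- and 7.74 to 13.1 units on the other arrays. The medians of this list were 0.80 and 0.55. Between challenged arrays 0 of 12 of these genes were at least 2-fold higher in cells labelled Pla2g3-/- and 2 lower, Slc26a4 at −3.97 and Tff1 at −1.31. Between control arrays 2 of 13 were higher by that much, Tff3 at 2.62 and Clca1 at 1.43. Slc26a4 was the 1 lower there, at −3.54. Clca1 read 140892 units on the control array labelled Pla2g3-/- and 56639 units on the control wild-type array.

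Of 12 regulators of goblet cell fate and secretory capacity, 2 were past 2-fold higher with challenge in cells labelled Pla2g3-/- and 1 that much lower, and 0 in wild type. Spdef, the transcription factor that drives goblet cell differentiation, differed by 1.05 and 0.42, and Xbp1, a factor of the unfolded protein response, by 1.13 and 0.81. Gfi1, a repressor used by secretory cells and by lymphoid cells, differed by −3.05 and −0.23. It had 1927 units on the control array labelled Pla2g3-/- against 128 to 252 elsewhere. The thymocyte and T cell genes were also highest on that control array, and their part in the Gfi1 difference was not tested. The medians of this list were −0.11 and 0.21.

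Of 15 signals and receptors that can induce mucins, 8 were at least 2-fold higher after challenge in cells labelled Pla2g3-/- and 3 in wild type, with 0 lower in either. Il13, which encodes the main inducer of Muc5ac, was detected on the challenged arrays and not on the control arrays, and differed by at least 4.67 in cells labelled Pla2g3-/- and by at least 2.19 in wild type. Il1b differed by 4.62 and 2.23, and Il17a by 4.90 and 0.88. Between challenged arrays, 6 of these 15 genes were at least 2-fold higher in cells labelled Pla2g3-/-, with Il17a at 4.03, Il1b at 3.38 and Il13 at 2.46. Most neutrophil markers and all macrophage markers looked up were also highest on the challenged array labelled Pla2g3-/-, as given above. Which cells these signals came from was not tested.

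Further lists held fewer genes past 2-fold. Of 13 genes of granule release, 2 were at least 2-fold higher after challenge in cells labelled Pla2g3-/-: Stx11, a syntaxin also used by white blood cells (1.79, and 0.41 in wild type), and P2ry2, the ATP and UTP receptor that triggers mucin secretion (1.70 and 0.82). Of 18 genes of O-glycan building, 2 were higher there, the sialyltransferase gene St3gal1 (1.66 and 0.74) and the sulfotransferase gene Chst4 (1.17 and 0.66). Of 9 partners and sheddases of membrane mucins, 0 differed 2-fold after challenge in either genotype. Of 8 further mucin and mucin-like genes measured, Parm1 was the one past 2-fold, with 1.29 in cells labelled Pla2g3-/- and 0.58 in wild type. In wild type 0 genes of these 4 lists reached 2-fold after challenge.

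RefSeq promoter sequences on GRCm38.p6 were at hand for 6 of the 9 mucin genes, and Muc5ac, Muc5b and Muc15 are only named here. The 250 bases before the start were searched on both strands for TTCNNNGAA (STAT-type), the same with 4 bases in the middle (STAT6-type), TGTTTAC (FOXA), TGAGTCA (AP-1) and GGGCGG (SP1). The windows of Muc13 and Muc4, the members with promoters that differed most after challenge, are shown with matches in capitals.

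Muc13, chr16:33793787-33794036, + strand: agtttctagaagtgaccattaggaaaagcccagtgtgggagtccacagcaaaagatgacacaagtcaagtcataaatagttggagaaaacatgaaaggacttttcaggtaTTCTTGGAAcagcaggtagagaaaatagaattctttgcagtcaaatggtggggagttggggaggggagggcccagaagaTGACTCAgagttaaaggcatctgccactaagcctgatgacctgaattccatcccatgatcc
Muc4, chr16:32735636-32735885, + strand: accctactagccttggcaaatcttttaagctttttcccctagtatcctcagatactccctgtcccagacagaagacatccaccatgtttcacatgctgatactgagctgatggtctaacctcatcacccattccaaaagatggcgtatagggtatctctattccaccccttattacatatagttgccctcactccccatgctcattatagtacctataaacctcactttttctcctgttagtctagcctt

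The Muc13 window held the AP-1 letters, on the other strand, 54 bases before the start, and the shorter STAT-type letters 131 bases before it, and the matches do not overlap. A second Muc13 start in the table had the AP-1 letters 172 bases before it. The AP-1 letters occurred in 4.46% of 32851 promoter windows of this length and the shorter STAT-type letters in 7.02%. The Muc4 and Muc16 windows held none of the letters searched. The Muc1 window held GGGCGG at 2 places and the Muc2 window at 1, as 32.7% of windows did at least once, and the Muc20 window held TGTTTAC, found in 3.17%. The STAT6-type letters, found in 5.85% of windows, were in none of the members' windows.

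**Figure D4:**
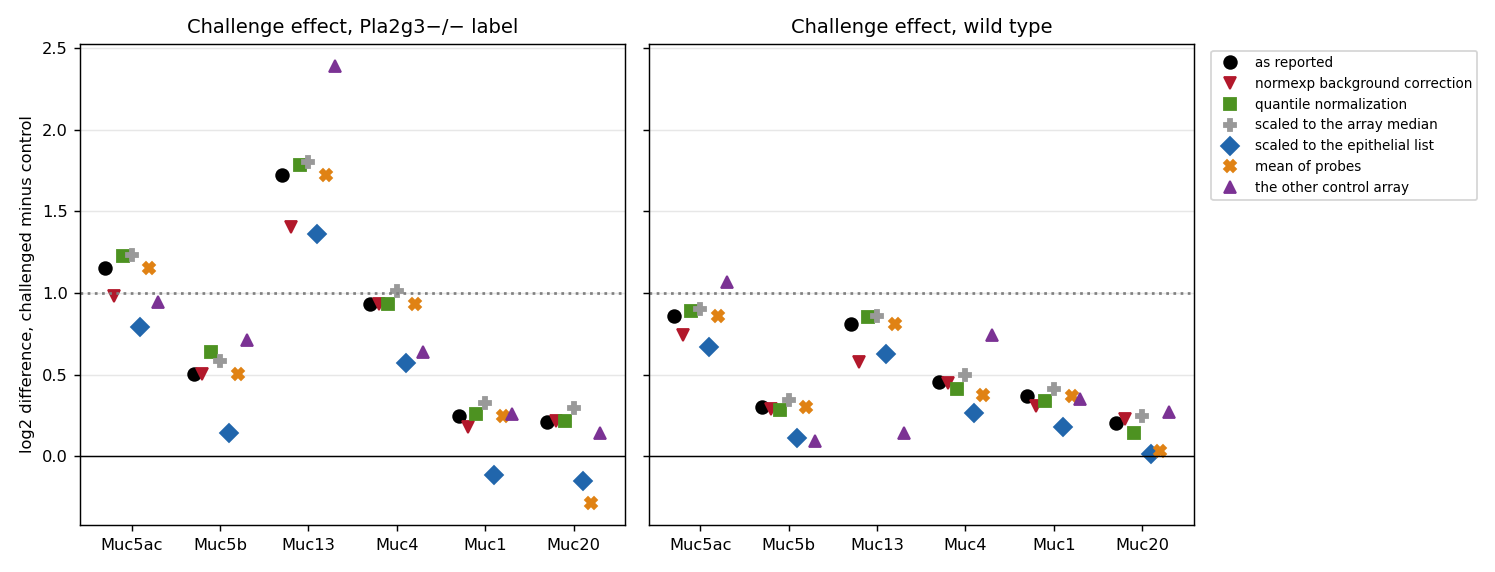
Challenge differences (log2, challenged minus control) of the 6 measured mucins under the reported setting and 6 other settings, for each genotype, with the dotted line at 2-fold. Muc5ac and Muc13 stay above 0 in every setting drawn, Muc13 in wild type falls to 0.14 with the other control array, and Muc1 and Muc20 cross 0 in cells labelled Pla2g3-/-.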

How the data were processed

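The deposited scanner files hold spot intensity values. The submitters' processing notes name Feature Extraction 11.5.1.1, which was run with spatial and multiplicative detrending and probes placed on mm9, per the file headers. Signal flags per spot come from the same files. All 4 arrays lie on the same slide with 1 group each; effects of position cannot be told apart from those of group. The value table deposited by the authors equalled the processed intensity divided by a constant per array (log2 ratio within 1.59e-06 over 44397 features), with column medians of 0.0850 to 0.0879.

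Control and outlier spots (128 to 155 per array) were left out. The log2 intensity minus the array's 75th percentile (1808 to 1986 units) was averaged over spots of a probe, and a gene took its brightest probe. Names came from RefSeq accessions for 28324 of 39429 probes, else from the files. Probes that repeat on an array had a median SD between spots of 0.07. A probe not well above background on 1 of 2 arrays gave a bound, against the higher of the lowest detected level and its own. Genes on all 4 arrays entered an additive limma 3.58.1 fit (R 4.3.3, trend on the mean, Benjamini-Hochberg at 0.05), tested on simulated data. Precision is limited by having 1 array per group.

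The members and gene lists were chosen with earlier results of these data known. Named are all members with all probes, up to 3 genes per list and difference with the largest absolute difference, the 3 nearest profiles of members spanning at least 1 log2 unit and well above background on all arrays, and Pla2g3. Alternatives were normexp (offset 50), quantile, median and epithelial-marker scaling, the mean of probes, other filters, the authors' values, a 1.5-fold threshold and exchanged control arrays.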

Additional observations from a re-analysis of the deposited data

Results flagged for a closer look

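The second Muc4 probe read higher in cells labelled Pla2g3-/- than in wild type with challenge, by 0.23 on the log2 scale, and lower without challenge, by −0.42, each beyond its scanner error of 0.20. The brighter probe went the same ways, with 0.19 and −0.29, the first within its error. Opposite signs drew attention to it. Whether the difference exceeds the spread between pools was not tested.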

How the results depend on the processing

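Of 222 single-member differences recomputed under the alternatives, 201 moved by less than their scanner error, 21 by more, and 10 changed sign, none of them from a 2-fold difference. Many of the 201 could not move. The 30 limited to genes above background on all arrays repeat the reported values, and the 30 from the authors' values differ by a constant per array. The mean of probes leaves members with a single probe as they were. Exchanging the control arrays moved 8 of 12. Scaling to the epithelial markers gave a median over all genes of −0.42 for challenge in cells labelled Pla2g3-/- and −0.22 in wild type, against −0.06 and −0.03 in the reported setting. It took the median of the mucins in cells labelled Pla2g3-/- to 0.36, against 0.72, and changed 4 signs. The count of mucins at least 2-fold higher after challenge in these cells was 1 with normexp, with epithelial scaling and with the other control array, against 2, as Muc5ac fell below 2-fold. In wild type that count was 2 at 1.5-fold, where 4.59% of all genes were higher, and 1 with the other control array, against 0. At 1.5-fold it was 1, against 0, for genotype without challenge and for the difference of the challenge differences, where 6.62% and 6.42% of all genes were higher. The additive limma fit called 2 mucins for challenge and 1 for genotype under epithelial scaling, against 0 and 0 otherwise. Over all genes it called 2489 for challenge under that scaling, 8 with no filter and 0 without a trend, against 5. For genotype it called 807 under that scaling, 43 with no filter, 4 with quantile normalization, 1 with the mean of probes and 0 without a trend, against 8. The epithelial scaling subtracts 1 value per array from all genes. These values were 4.21 and 3.85 on the challenged and control arrays labelled Pla2g3-/-, and 4.13 and 3.94 on the challenged and control wild-type arrays. By construction it moved all genes together, and downward after challenge. The markers' own median challenge differences were 0.04 and 0.07. The part of this shift in the raised counts was not tested. Muc20 turned to −0.29 for challenge in cells labelled Pla2g3-/- with the mean of its probes, which the second probe explains by construction. Signal over background limits Muc2 and Muc15. No paired analysis was possible because each group has 1 array.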
